A study of Mus musculus with 6 samples.

Results

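The genes described here are the semaphorins, ephrins and Slits, which are cues that steer growing axons and vessels, together with their plexin, neuropilin, Eph and Robo receptors. They were chosen by symbol from the probe sets of a mouse genome array that name a single gene, and 59 of the 18193 genes read in this way belonged to these families. A probe set is a group of short probes that together read the RNA of 1 gene, and the 59 genes were covered by 136 probe sets of the 45037 on the array that are not controls. Of the guidance genes, 20 were semaphorins, 9 plexins, 2 neuropilins, 13 Eph receptors, 8 ephrins, 3 Slits and 4 Robos. Every symbol matched the RefSeq gene table by gene number. Ephb2 was not analysed here.

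RNA was measured in retinas of 3 adult wild type (WT) mice and 3 adult littermates lacking Trim9 (Trim9 KO), a brain-enriched E3 ubiquitin ligase of the TRIM family that had been linked to axon branching and guidance. The study asked whether the KO retina shows a transcriptional phenotype. The labels name no treatment, strain or age beyond adult, although their note on tissue collection speaks of embryos, and 1 array was hybridized per sample. The KO allele lacks exon 1 of Trim9 and was made with CMV-cre mice, in which a broadly active viral promoter drives the recombinase, so that loss of the gene was not limited to a cell type. Whole retina was used, and in such bulk RNA fewer cells of a type and less RNA per cell cannot be told apart.

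Semaphorins are secreted or membrane-bound cues that act through plexins, and most of the secreted class also need a neuropilin as a co-receptor. Eph receptors are tyrosine kinases that respond to ephrins on the surface of neighbouring cells, and signals can pass in both directions. Slits are large secreted proteins that repel axons carrying Robo receptors. In the visual system these families guide ganglion cell axons at the optic chiasm, order their map in the brain, keep neurites within the synaptic layers of the retina and pattern retinal vessels.

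Signals are given as log2 intensity, which stands for log2(intensity + 16), and differences as log2 fold change, the Trim9 KO mean minus the WT mean on that scale. The added constant understates the difference of dim genes. A gene was read by its brightest probe set, and the brightness of different probe sets sets no order of RNA levels between genes. By the brightest of its 4 probe sets, Trim9 itself read 10.72 to 12.05 on WT and 8.58 to 10.56 on Trim9 KO arrays. No KO array reached the WT range, although Trim9 KO replicate 1 lay just under WT replicate 3 (log2 fold change -1.81, SE 0.99, two-sided exact permutation p = 0.1). Whether this probe set reads the deleted exon could not be looked up, and the other probe sets of Trim9 were not examined here. Trim9 KO replicate 1 stood apart, with Pearson's r of 0.47 to 0.52 with the other 5 arrays across probe sets, against 0.66 to 0.89 among those 5. Median intensities were 218 to 807. The ratio of 3' to 5' signal of the Actb control grows as RNA is degraded. It was 20.2, 9.87 and 3.43 on WT replicates 1, 2 and 3. On Trim9 KO replicates 1, 2 and 3 it was 2.83, 94.5 and 90.5. For Gapdh these ratios were 310, 82.0 and 0.905 on WT and 134, 153 and 163 on KO arrays. Trim9 KO replicate 1 thus had the lowest Actb ratio, and values without that array rest on the KO arrays with the highest. Without Trim9 KO replicate 1, the log2 fold change took the other sign in 23 of the 59 guidance genes. Values without that array are given beside those of them that are described by name below, and other genes that turned are not listed.

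None of the 59 guidance genes passed limma at an adjusted p of 0.05 (lowest adjusted p = 0.999), and 0% of all genes did. Sema3b, with a higher mean in KO retinas, was the only guidance gene with an unadjusted p under 0.05, which 1.82% of all genes had in this direction and 0.737% in the other. For 6 guidance genes, which are 10.2% of the 59, the lowest KO array exceeded the highest WT array, as was the case for 5.35% of all genes. These were Sema3b, Efna4, Robo3, Nrp1, Ephb1 and Epha7. For 1 gene, the plexin Plxnd1, every KO array lay below every WT array, which is 1.69% of the guidance genes against 2.89% of all genes. With 3 arrays against 3, the smallest p of the two-sided exact permutation test is 0.1, and each of these 7 genes was at that value.

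As a group the guidance genes were centred near 0. Of the 59 genes, 27 had a higher mean in KO retinas, or 45.8%, against 55.2% of all genes, and 32 a lower one. Their median log2 fold change was -0.14, and that of all genes was 0.14. The median of all genes moved to 0.024 after quantile normalization and to -0.19 with every array set to 1 median, and the count of guidance genes with a higher mean moved to 23 and 18. Single genes spanned -2.07 for Plxnb2 to 3.34 for Sema3b. In 47 of the 59 the difference between genotypes was smaller than the pooled standard deviation of the replicates, and 72.8% of all genes had so small a difference.

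**Figure D1:**
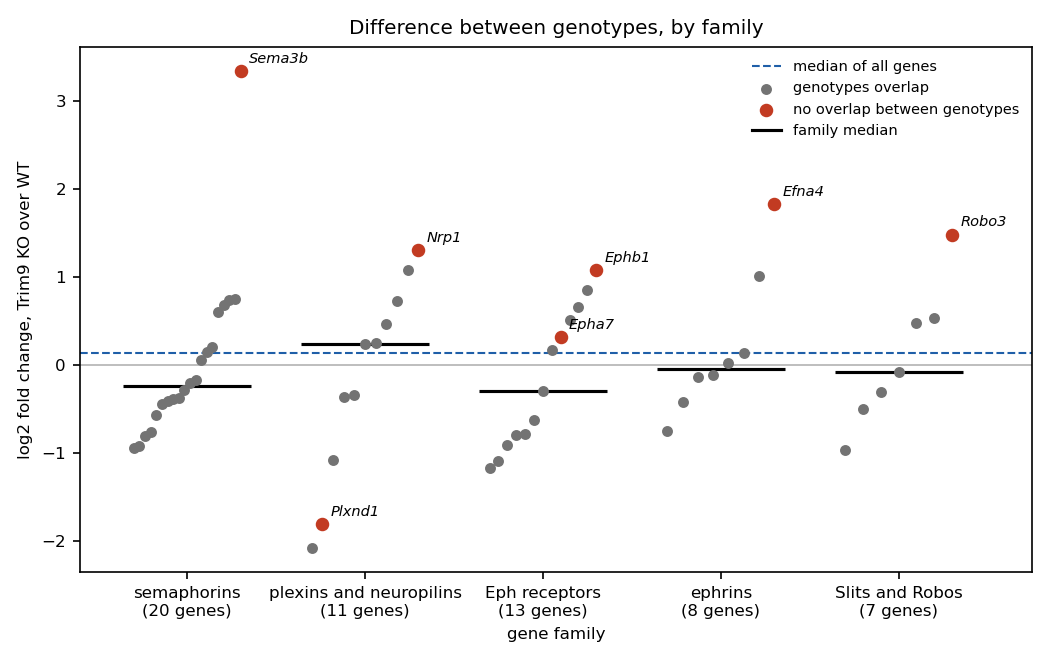
Each guidance gene by family (x axis) at its log2 fold change between genotypes, KO minus WT (y axis); points are genes, black bars are family medians and the dashed line is the median of all genes (0.14). Red points mark the 7 genes whose arrays did not overlap between genotypes, 6 of them above 0 and Plxnd1 at -1.80, and every family has members on both sides of 0.

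Sema3b, a secreted semaphorin, had the largest difference of the 59 genes. Its log2 intensity was 4.77, 5.44 and 7.75 on WT replicates 1, 2 and 3 and 11.43, 7.91 and 8.62 on Trim9 KO replicates 1, 2 and 3. The genotypes did not overlap, although WT replicate 3 lay just under Trim9 KO replicate 2, and the highest value came from the array that stood apart. The means were 5.98 ± 1.56 and 9.32 ± 1.86 (SD, n = 3 each), and the log2 fold change was 3.34 (SE 1.22, limma adjusted p = 0.999, exact permutation p = 0.1). It was 2.28 without Trim9 KO replicate 1, 4.22 without WT replicate 3 and 1.61 when all 3 probe sets of the gene were averaged. The genotypes overlapped with that average, after quantile normalization (3.21) and with equal array medians (3.01). The other probe sets for Sema3b read 0.91 (SE 1.41) and 0.57 (SE 1.49), with the genotypes overlapping in both. Markers of the retinal pigment epithelium, the sheet of cells behind the retina, moved in the same direction. All 8 of the 8 listed had a higher mean in KO retinas, against 55.2% of all genes. So did 3 of 3 red blood cell, 5 of 7 lens and 5 of 7 microglia genes, but 0 of 6 rod and 1 of 7 Müller glia genes. Without Trim9 KO replicate 1, the pigment epithelium genes Best1 (0.77) and Pmel (0.34) turned to -0.53 and -1.45. The summed intensity of the 8 was 72384 to 478844 on WT and 386091 to 1363910 on KO arrays. On every array most of it came from 1 gene, Ttr (67384 to 468976 on WT and 313314 to 1353350 on KO arrays). The part of these 8 markers in the result was not tested. None of these 8 was at 0 on any array; the dimmest was Best1, with a mean log2 intensity of 6.82.

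By their brightest probe sets, the other secreted semaphorins showed no difference beyond their spread. Sema3a, a repellent of sensory and cortical axons that binds neuropilin-1, read 11.64, 11.53 and 10.11 on WT and 8.29, 12.25 and 11.90 on KO arrays, with Trim9 KO replicate 1 the lowest array and the other KO arrays above the WT range. Its log2 fold change was -0.28 and 0.98 without Trim9 KO replicate 1. The other probe sets for Sema3a gave 2.43 (SE 1.27) and -0.94 (SE 1.04), both with overlap. Sema3e, the ligand of plexin-D1 that repels retinal vessels, read 12.61, 11.30 and 11.82 on WT and 7.17, 12.43 and 13.31 on KO arrays. Its log2 fold change of -0.94 (SE 1.47) came from Trim9 KO replicate 1, and it was 0.96 without that array. Another probe set for Sema3e gave 2.37 (SE 0.94, limma adjusted p = 0.999) without overlap, so the probe sets of this gene did not point one way. On their brightest probe sets, Sema3c (0.20), Sema3d (-0.39), Sema3f (-0.44) and Sema3g (-0.57) had fold changes smaller than their standard errors of 0.94 to 1.09. The other Sema3c probe set gave -2.19 (SE 1.10) and that of Sema3d 1.16 (SE 1.16), both with overlap.

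Membrane-bound semaphorins were likewise mixed. Sema6d, the brightest semaphorin probe set, read 12.45, 11.68 and 11.39 on WT and 11.07, 12.03 and 12.85 on KO arrays, and the ranges overlapped widely (log2 fold change 0.15, SE 0.96). Sema4d, a ligand of plexin-B1, read 9.87, 11.14 and 10.73 on WT and 7.36, 10.90 and 10.73 on KO arrays. Its difference of -0.92 (SE 1.15) turned to 0.24 without Trim9 KO replicate 1. Sema5a, which with Sema5b confines retinal neurites to the inner plexiform layer, had the widest spread of all 59 genes, at 5.18, 11.27 and 11.20 on WT and 10.93, 9.51 and 4.94 on KO arrays. On this probe set both genotypes thus held an array with hardly any Sema5a signal and others with strong signal. The next brightest Sema5a probe set read 5.06, 10.09 and 10.50 on WT and 9.13, 5.78 and 6.91 on KO arrays. Another read 6.55, 9.78 and 6.20 on WT and 8.86, 7.99 and 7.37 on KO arrays. Sema5b (-0.17), Sema4a, in which variants are linked to retinal degeneration (-0.21), Sema6a, which sorts amacrine cell processes into layers (0.60), and the lipid-anchored Sema7a (0.05) lay within 1 standard error of 0 on the log2 fold change scale. Without Trim9 KO replicate 1 these values were 0.75, 1.26, -0.24 and -0.58. A second Sema6a probe set, nearly as bright as the one used, read -1.96 (SE 1.14), so the sign for this gene depended on the probe set. Over the 20 semaphorins, 8 had a higher and 12 a lower mean, and the median log2 fold change was -0.24. Left without Trim9 KO replicate 1 that median was 0.29, and without WT replicate 2 it was 0.043.

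Among the semaphorin receptors, Nrp1 and Plxnd1 separated the genotypes in opposite directions. Nrp1, the co-receptor for secreted semaphorins and for VEGF, read 10.66, 10.38 and 10.84 on WT and 11.95, 11.71 and 12.13 on KO arrays. The replicates of each genotype lay close together, with means of 10.63 ± 0.23 and 11.93 ± 0.21 (SD, n = 3 each) and a log2 fold change of 1.30 (SE 0.89, adjusted p = 0.999). Limma's standard error is larger than these spreads because it draws on the spread of all probe sets. The other probe sets for Nrp1 did not show this difference. One of them read 8.96, 9.54 and 9.45 on WT and 7.96, 8.17 and 7.48 on KO arrays, so that here the KO arrays were the lower ones without overlap (log2 fold change -1.45, SE 0.90). The remaining probe sets gave -1.64 (SE 1.10) and 0.12 (SE 1.31), and the mean of all 4 gave -0.42. The separation of the brightest probe set was also lost with equal array medians (0.98). Which of them reads the main Nrp1 transcript was not tested. Nrp2, the other neuropilin, read 10.10, 10.43 and 9.36 on WT and 11.66, 9.74 and 9.88 on KO arrays, with overlap (0.46, SE 0.98, and -0.15 without Trim9 KO replicate 1).

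**Figure D2:**
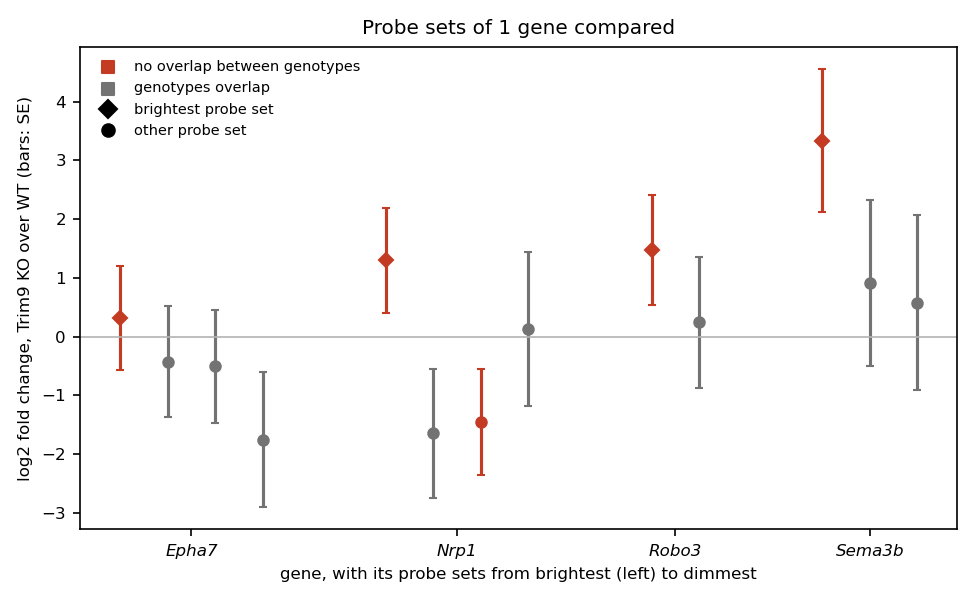
Log2 fold change between genotypes, KO minus WT, with its SE (y axis), of every probe set of the 4 genes that did not overlap between genotypes and have several probe sets (x axis). Diamonds are the brightest probe set, circles the others, and red marks no overlap; Nrp1 has red points at 1.30 and -1.45, and the lower Epha7 probe sets lie at -0.43 to -1.75.

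Plxnd1, the plexin of endothelial cells that receives Sema3e, was dim and lower in KO retinas. It read 7.12, 7.59 and 8.91 on WT and 7.02, 5.95 and 5.24 on KO arrays, and WT replicate 1 and Trim9 KO replicate 1 were only just apart. The means were 7.87 ± 0.93 and 6.07 ± 0.89 (SD, n = 3 each), with a log2 fold change of -1.80 (SE 0.99, adjusted p = 0.999) that ran from -2.42 to -1.28 over the 13 alternatives in which it was kept. The 8 endothelial markers did not move with it as a group, with 5 higher and 3 lower in KO retinas and a summed intensity of 3828 to 9641 on WT and 3800 to 10236 on KO arrays. The vessel receptor Flt1 was the 1 marker with every KO array below every WT array (log2 fold change -1.64, SE 0.97). The adhesion molecule Pecam1 was the 1 with every KO array above (1.59, SE 0.91). Over all genes, 2.89% lay below and 5.35% above in this way.

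Plxnb2, a receptor for class 4 semaphorins, had the lowest fold change of all 59 genes. It read 9.08, 11.46 and 10.30 on WT and 6.37, 9.69 and 8.56 on KO arrays, so Trim9 KO replicate 2 overlapped the WT range. The log2 fold change of -2.07 (SE 1.14, limma adjusted p = 0.999, exact permutation p = 0.2) was -1.16 without Trim9 KO replicate 1. Plxna2, the brightest plexin probe set and a receptor for Sema6a, was nearly level on 5 arrays at 12.49 to 12.82 and lower, at 11.09, on Trim9 KO replicate 1. Its log2 fold change was -0.34 (SE 0.95), and 0.22 without that array. Plxna1 (-1.08, SE 1.13) and Plxna3 (0.73, SE 0.93), the receptors of Sema5a and Sema5b, had differences of opposite sign, which were -0.0046 and 0.33 without Trim9 KO replicate 1. For Plxna4, which acts with Sema6a in forming retinal layers, the brightest probe set gave 0.25 (SE 1.09), and the other gave 1.85 (SE 1.02) with the KO arrays higher and no overlap. Of the 11 plexins and neuropilins 6 had a higher and 5 a lower mean, with a median of 0.24 that turned to -0.16 without WT replicate 3, -0.082 with equal array medians and -0.19 with averaged probe sets.

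Ephb1, the receptor that turns some ganglion cell axons back to their own side of the brain at the chiasm, read 11.67, 10.48 and 11.18 on WT and 12.46, 12.22 and 11.89 on KO arrays. The KO arrays were higher without overlap, with WT replicate 1 closest to them. The means were 11.11 ± 0.60 and 12.19 ± 0.29 (SD, n = 3 each), and the log2 fold change was 1.08 (SE 0.92, adjusted p = 0.999). The separation was lost when array medians were made equal (log2 fold change 0.76). Efna4, an ephrin-A ligand anchored to the membrane by a lipid, was also higher on every KO array, at 7.09, 6.55 and 7.61 on WT and 9.29, 8.42 and 9.02 on KO arrays. The lowest KO array, replicate 2, lay above the highest WT array, replicate 3. The means were 7.08 ± 0.53 and 8.91 ± 0.45 (SD, n = 3 each), with a log2 fold change of 1.83 (SE 0.92, limma adjusted p = 0.999, exact permutation p = 0.1) and a range of 1.37 to 2.09 over all alternatives in which it was kept.

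**Figure D3:**
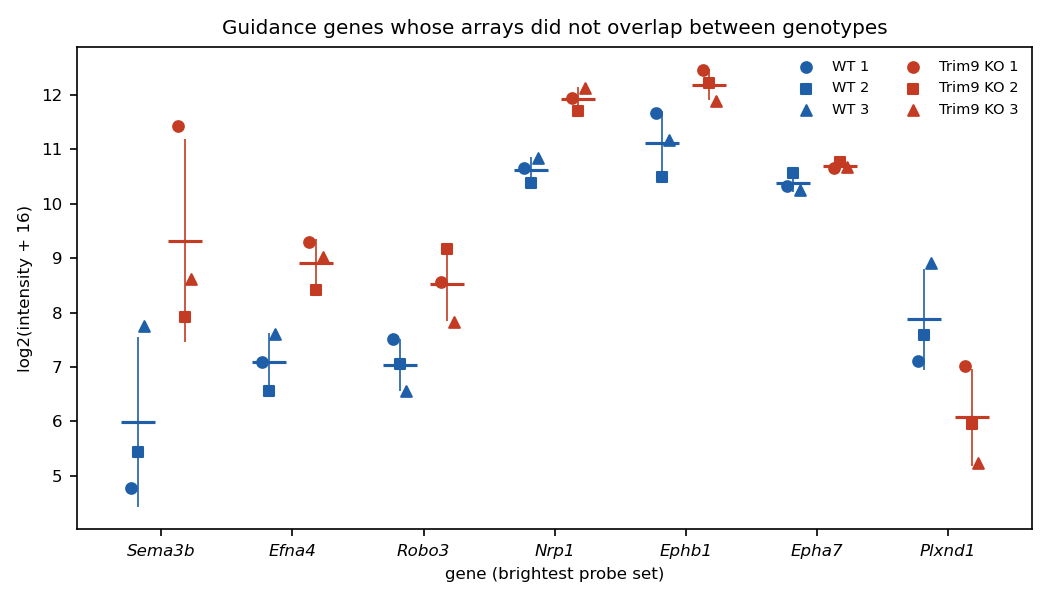
Log2 intensity (y axis) on each array of the 7 guidance genes whose genotypes did not overlap (x axis), with blue for WT and red for Trim9 KO; the symbol gives the replicate, the long line the mean and the bar the SD. The SDs of Nrp1 are 0.23 and 0.21, whereas the Sema3b KO arrays run from 7.91 to 11.43.

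Efna4, Ephb1 and Plxnd1 are the genes that did not overlap between genotypes and had only 1 probe set, so that their values rest on that probe set, and the start regions of these genes are shown for that reason. The sequences are from RefSeq on GRCm38.p6 and span 300 bases around the start, most of them before it, 5' to 3' on the strand of the gene. Efna4 lies at chr3:89337979-89338278, Ephb1 at chr9:102354644-102354943 and Plxnd1 at chr6:115994956-115995255, all on the minus strand. Capitals mark, on either strand, the GC box motif GGGCGG, the CCAAT box motif, the TATA box motif TATAAA and the E-box motif CACGTG, and no marked stretches overlap.
Efna4: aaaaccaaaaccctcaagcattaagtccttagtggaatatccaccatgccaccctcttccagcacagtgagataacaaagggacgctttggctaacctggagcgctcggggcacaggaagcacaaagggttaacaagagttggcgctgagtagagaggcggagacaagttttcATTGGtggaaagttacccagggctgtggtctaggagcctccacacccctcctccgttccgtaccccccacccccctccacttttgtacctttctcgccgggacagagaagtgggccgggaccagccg
Ephb1: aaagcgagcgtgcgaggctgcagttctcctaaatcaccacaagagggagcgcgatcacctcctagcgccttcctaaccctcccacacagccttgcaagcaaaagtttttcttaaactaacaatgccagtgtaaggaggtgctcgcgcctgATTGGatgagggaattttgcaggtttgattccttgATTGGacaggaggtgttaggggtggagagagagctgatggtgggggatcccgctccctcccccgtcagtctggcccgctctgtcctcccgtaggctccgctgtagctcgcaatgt
Plxnd1: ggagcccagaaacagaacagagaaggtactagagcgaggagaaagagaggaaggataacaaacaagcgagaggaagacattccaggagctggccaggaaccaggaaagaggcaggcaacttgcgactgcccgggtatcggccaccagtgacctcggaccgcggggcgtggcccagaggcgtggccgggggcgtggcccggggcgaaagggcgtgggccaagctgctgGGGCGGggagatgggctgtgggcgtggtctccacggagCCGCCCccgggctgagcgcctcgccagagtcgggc
A CCAAT box occurred 1 time in the Efna4 window and 2 times in that of Ephb1, and 2 GC boxes in that of Plxnd1. No TATA box or E-box was found in these windows. Over the 68 start regions listed for 52 guidance genes, 72.1% held a GC box, 29.4% a CCAAT box, 2.94% a TATA box and 7.35% an E-box. The shares over all 32851 start regions of that length were 35.7%, 37.4%, 13.6% and 7.15%. Guidance genes thus had GC-rich starts (median GC content 64%, against 52.7%), as a description of the genes and not of their expression. The arrays read the transcripts and not these regions.

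The other Eph receptors gave no further separation, apart from a narrow one in Epha7. Epha7, an EphA receptor of the developing visual system, read 10.33, 10.56 and 10.25 on WT and 10.66, 10.76 and 10.67 on KO arrays. This was the tightest gene of the 59, with a pooled standard deviation of 0.12, and its log2 fold change was only 0.32 (SE 0.89). Its separation was lost after quantile normalization (0.21), and it went to -0.0033 when array medians were made equal. The other 3 probe sets of Epha7 had lower means in KO retinas (-0.43, -0.50 and -1.75), and the mean of all 4 was -0.59. Epha5, the brightest EphA probe set and a receptor that orders the retinal map in the brain, read 12.62, 11.38 and 11.37 on WT and 10.37, 11.42 and 12.70 on KO arrays. The KO arrays spanned more than the WT range, and its log2 fold change was -0.30 (SE 1.00) and 0.26 without Trim9 KO replicate 1.

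Epha3 (-1.16, SE 1.06), Epha4 (-0.80, SE 1.05), Ephb3 (-0.91, SE 1.03) and Ephb4, a receptor of venous endothelium (-1.09, SE 1.23), had lower means without separation. For Epha3 and Epha4 the lowest array was Trim9 KO replicate 1, at 7.36 and 8.72 against 9.62 to 11.06 and 10.10 to 11.92 on the other arrays, and without it the log2 fold changes were -0.29 and -0.036. For Ephb4 the highest was WT replicate 2, at 10.12 against 5.29 to 7.63, and the log2 fold change was 0.13 without that array. Of the 13 Eph receptors 6 had a higher and 7 a lower mean. The median log2 fold change was -0.30, and it was 0.077 without Trim9 KO replicate 1, 0.13 without WT replicate 2 and 0.10 with averaged probe sets.

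Among the ephrins, Efna4 was the only gene that separated the genotypes. Efnb1, a transmembrane ligand of EphB receptors and the brightest ephrin-B probe set, came next at 10.34, 11.25 and 10.13 on WT and 11.89, 11.89 and 10.96 on KO arrays. WT replicate 2 overlapped the KO range, and the log2 fold change was 1.01 (SE 0.93, limma adjusted p = 0.999). The other probe sets for Efnb1 gave 0.27 (SE 0.93) and 0.072 (SE 1.12), both with overlap. Efna5, the ligand that with Epha5 sets the map of ganglion cell axons, read 9.10, 11.26 and 11.02 on WT and 10.57, 10.31 and 10.16 on KO arrays, and the KO values lay inside the WT range (-0.11, SE 0.98). Efnb2, which signals to Ephb1 at the chiasm, was at 0.028 (SE 1.03), and its 4 probe sets all had slightly higher means in KO retinas (0.028 to 0.60). It was 0.81 without Trim9 KO replicate 1. Efnb3 (-0.75, SE 1.27) and Efna3 (-0.42) had lower means, and both turned to higher ones without Trim9 KO replicate 1 (0.12 and 0.72). Of the 8 ephrins 4 had a higher and 4 a lower mean (median -0.043), and the median was -0.37 to 0.48 when an array was left out.

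Among the Slits and Robos, Robo3 separated the genotypes. Slit2, a ligand that keeps ganglion cell axons on course, read 12.89, 13.28 and 12.58 on WT and 12.43, 12.55 and 12.85 on KO arrays, with little spread and with overlap (-0.31, SE 0.90). Slit1, which acts with it at the chiasm, read 7.72, 10.99 and 8.24 on WT and 7.13, 10.55 and 7.79 on KO arrays. On this probe set replicate 2 was high in both genotypes (log2 fold change -0.50, SE 1.24, and 0.18 without Trim9 KO replicate 1). The other Slit1 probe set did not show this, at 9.31, 6.06 and 9.77 on WT and 5.62, 9.93 and 9.07 on KO arrays (-0.17, SE 1.37). Slit3 read 4.66 to 5.70 on 5 arrays and 7.48 on Trim9 KO replicate 1 (log2 fold change 0.47, and -0.41 without that array). Robo3, the receptor that lets commissural axons cross the midline, read 7.52, 7.05 and 6.55 on WT and 8.56, 9.17 and 7.83 on KO arrays. The KO arrays were higher without overlap, with a log2 fold change of 1.48 (SE 0.93, limma adjusted p = 0.999). Its other probe set gave 0.24 (SE 1.12) with overlap, and the separation of the brightest one was lost after quantile normalization (1.32) and with equal array medians (1.16).

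Robo1, the brightest Robo probe set and a Slit receptor, read 10.90, 11.01 and 10.57 on WT and 9.89, 8.81 and 10.89 on KO arrays, where Trim9 KO replicate 3 stayed among the WT values (-0.96, SE 0.96). Robo2, the main Slit receptor of ganglion cells, was at -0.085 (SE 1.18), and Robo4, which is found in endothelium, at 0.53 (SE 1.12). Without Trim9 KO replicate 1 they were 0.69 and -0.15. Of these 7 genes 3 had a higher and 4 a lower mean, with a median log2 fold change of -0.085 that became 0.70 without WT replicate 2.

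The fold changes of ligands and of the receptors they are known to act through are set side by side here. Sema3e was at -0.94 and its receptor Plxnd1 at -1.80, but without Trim9 KO replicate 1 they were 0.96 and -2.28. Sema3a was at -0.28 and Nrp1 at 1.30, and without that array 0.98 and 1.29, while Nrp1 was at -0.42 with averaged probe sets. The sign pattern of both pairs thus depended on 1 array. Efnb2 (0.028) stood beside Ephb1 (1.08), and these were 0.81 and 0.94 without the array. Slit2 (-0.31) stood beside Robo1 (-0.96), and these were -0.22 and -0.98. Both members of a pair come from the same arrays, and no test of a pair was made.

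**Figure D4:**
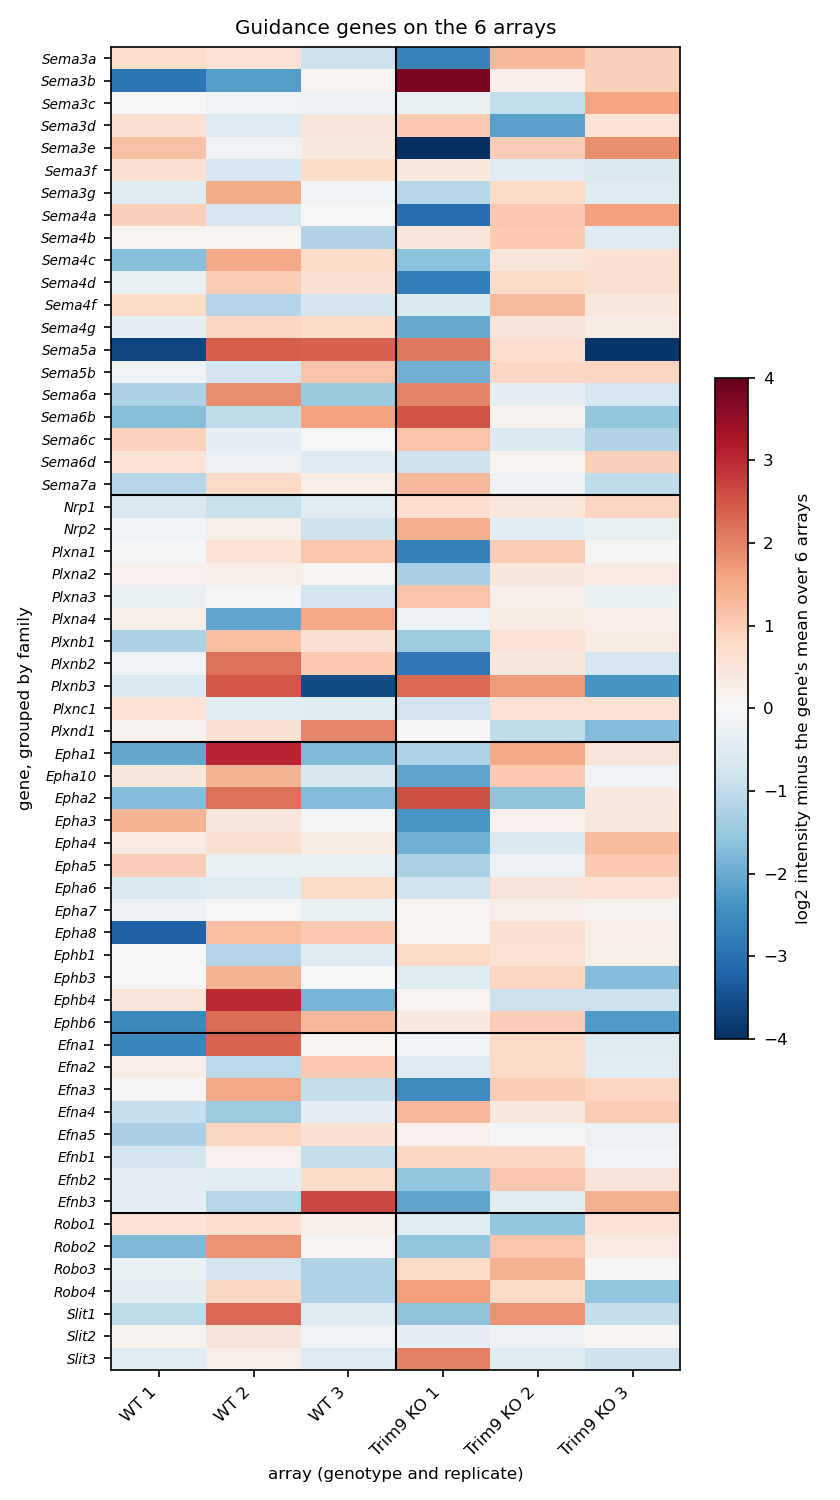
Log2 intensity of the 59 guidance genes (y axis, by family) on the 6 arrays (x axis), as the difference from the mean of the gene over 6 arrays; red is above and blue below that mean, and the colour scale ends at 4. The column of Trim9 KO replicate 1 holds the lowest value of 23 genes and the highest of 13, and single genes such as Sema5a and Sema3b vary more than others such as Slit2 and Epha7.

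Single arrays were also compared. Trim9 KO replicate 1 was the lowest of the 6 arrays for 23 of the 59 guidance genes, or 39.0%, against 22.3% of all genes, and the highest for 13, against 31.3% of all genes. WT replicate 2 was the highest for 21, or 35.6%, against 21.0% of all genes. The median log2 intensity of the guidance genes, taken relative to the median of all genes on the same array, was 0.21, 0.43 and 0.27 on WT replicates 1, 2 and 3 and -1.27, 0.47 and 0.24 on Trim9 KO replicates 1, 2 and 3. The guidance genes were thus brighter than the middle of all genes on 5 arrays and dimmer on 1. On Trim9 KO replicate 1 this difference was -0.39 for semaphorins, -1.51 for Eph receptors, -1.73 for ephrins and -1.67 for Slits and Robos, and 0.52 for plexins and neuropilins. The last value lay within the range of the other arrays (0.43 to 1.13). Slits and Robos were also at -1.30 on WT replicate 1, -1.35 on WT replicate 3 and -1.33 on Trim9 KO replicate 3. Without Trim9 KO replicate 1, 36 of the 59 genes had a higher mean in KO retinas, the median log2 fold change was 0.22 against 0.098 for all genes, and genotypes did not overlap for 9 genes that were higher and 2 that were lower (10.8% and 7.01% of all genes).

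**Figure D5:**
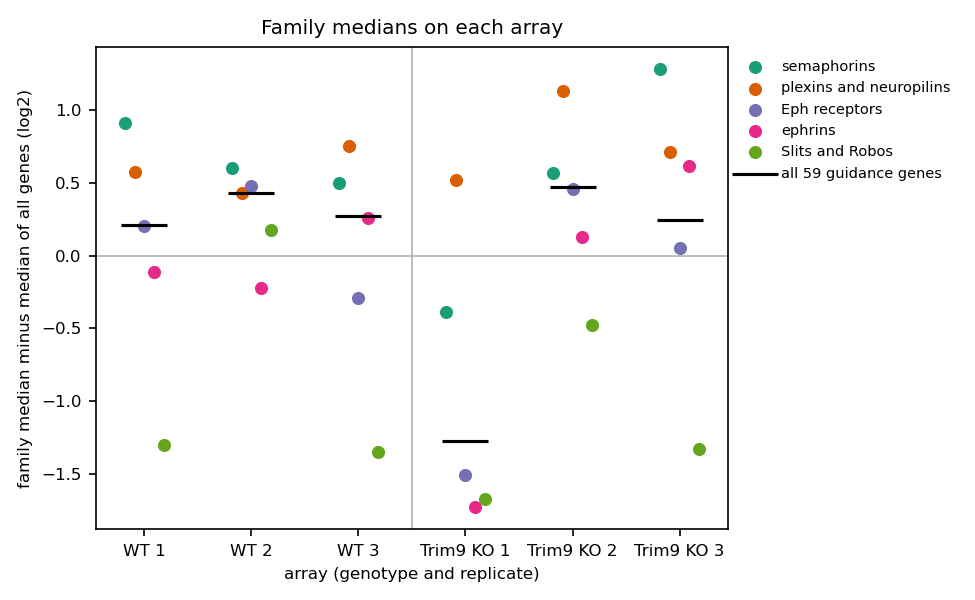
Median log2 intensity of each family minus the median of all genes on the same array (y axis), for the 6 arrays (x axis); coloured points are families and black dashes all 59 guidance genes. The dash is at -1.27 on Trim9 KO replicate 1 and at 0.21 to 0.47 on the other arrays.

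Probe sets for 1 gene often did not point the same way. Of the 40 guidance genes with several probe sets, 14, or 35.0%, had all of them on the same side of 0, against 37.6% of 9010 such genes on the whole array. The median spread of the log2 fold change between the probe sets of a guidance gene was 1.55, and the largest was 3.44, in Sema3e. Of the 136 probe sets, 10 separated the genotypes, against 7.92% of all probe sets. The probe sets standing for Sema3f, Sema4a and Sema4f carry the suffix by which the maker marks probes that may bind other transcripts, and that of Plxnb3 is marked as shared between related transcripts.

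Genes that act downstream of these receptors or together with them were examined as lists drawn from general knowledge. Of 27 semaphorin signalling partners 17 had a higher and 10 a lower mean (median log2 fold change 0.26), with the collapsin response mediator protein Dpysl5 at 2.61 (SE 1.23) and integrin beta-1, Itgb1, a receptor subunit for Sema7a, at -2.15 (SE 1.14). Of 21 Eph and ephrin partners 11 had a higher and 10 a lower mean (median 0.0071). The guanine nucleotide exchange factor Arhgef15, which binds EphB2, was at 1.68 (SE 1.12), and the scaffold Grip1 at -1.86 (SE 1.39). Grip1 read 6.53 on Trim9 KO replicate 1 and 11.32 to 12.47 on the other arrays, and was at -0.11 without it. Of 19 Slit and Robo partners 7 had a higher and 12 a lower mean (median -0.46), with the heparan sulphate proteoglycans Gpc1 at -1.85 (SE 1.19) and Sdc3 at -1.63 (SE 1.09). No gene of the 3 lists passed limma at an adjusted p of 0.05 or had an unadjusted p under 0.05. Of all genes, 1.82% had such an unadjusted p with a higher and 0.737% with a lower mean in KO retinas. The genotypes did not overlap for 1 gene of these lists, Ngef, an exchange factor that acts below EphA receptors. It was lower on all KO arrays (log2 fold change -1.23, SE 0.95, and -0.74 without Trim9 KO replicate 1). Over all genes, 2.89% were lower in this way and 5.35% higher.

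The tissue label was checked against cell type markers. Probe sets for all 6 rod genes, 7 Müller glia genes, 7 amacrine, 5 bipolar and 8 ganglion cell genes that were measured lay above the median of all probe sets, with mean log2 intensities of 14.7 to 16.6 for rods on the 6 arrays. The rod genes all had lower means in KO retinas (median log2 fold change -0.61), as did 6 of 7 Müller glia genes (median -1.22) and 6 of 7 amacrine genes (median -0.33). Without Trim9 KO replicate 1, the Müller glia genes Slc1a3 (-1.32) and Aqp4 (-0.29) turned to 0.98 and 0.51. No rod or amacrine gene took the other sign without that array. Ganglion cell genes were split, with 4 higher and 4 lower (median -0.11). Among them the neurofilament gene Nefm was lower on every KO array (log2 fold change -3.55, SE 1.19, limma adjusted p = 0.999). It was the only marker of this list below 0.05 before adjustment, as were 0.737% of all genes with a lower mean. The transcription factor Pou4f1 was higher on every KO array (1.73, SE 0.98). Over all genes, 2.89% lay below and 5.35% above without overlap. Beside Flt1 and Pecam1, markers of other cells without overlap were Tfap2a of amacrine cells (0.27), Cspg4 of pericytes (2.26) and Mlana of pigment epithelium (2.59), all higher. Microglia genes had a median of 0.60, lens genes of 0.68 and 3 red blood cell genes of 0.87. Whether these shifts have a part in the values of the guidance genes was not tested.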

How the data were processed

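RNA of 3 WT and 3 Trim9 KO adult retinas was hybridized to Affymetrix mouse genome arrays. The deposited table holds linear intensities, which the authors scaled on each array to the same trimmed mean. The submitters' processing notes name MAS5, with no version, whereas the study's methods name RMA; the linear scale and the unequal medians are those of the former. Precision is limited by the number of arrays.

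Values were analysed as log2(intensity + 16). After 64 control probe sets were left out, 45037 probe sets were compared with limma 3.58.1 (lmFit, eBayes) in R 4.3.3, with no block and no filter, and p-values were adjusted over all of them (Benjamini-Hochberg, threshold 0.05). Among 34945 probe sets naming 1 gene, the one with the highest mean stood for the gene. Families were described by counts and medians with no test. Genes were named by a rule: the brightest probe set of each family, its 2 largest limma statistics, every gene without overlap between genotypes, and genes known in retina; of the partner lists, the 2 largest statistics. The members, lists and rule were chosen with earlier results of these data known. Other genes named are ends of ranges or were chosen after their values were seen. The alternatives tried were equal array medians, quantile normalization, leaving out dim probe sets, averaging the probe sets of a gene, pseudocounts of 64 and 1, a replicate block, leaving out each array and a set of 4 arrays. The fit was tested on simulated data. Figures were drawn with matplotlib 3.10.9 in Python 3.11.15.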

Additional observations from a re-analysis of the deposited data

How the results depend on the processing

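No guidance gene passed an adjusted p of 0.05 under any of the 14 alternatives; the lowest adjusted p of the 24 genes followed was 0.85, and 7 of these genes had 13 alternatives, since leaving out dim probe sets removed them. The count with an unadjusted p under 0.05 was 2 after quantile normalization and on 4 arrays (WT replicates 1 and 3, Trim9 KO replicates 2 and 3). It was 0 without dim probe sets and 0 to 1 without an array (0 without WT replicate 1 or 2). Of 45037 probe sets, 1643 had such a p after quantile normalization, 1462 on the 4 arrays and 854 to 2556 without an array. Without dim probe sets it was 632 of 22518. The count without overlap, 7 in the report, was 3 with equal array medians and without dim probe sets and 4 with averaged probe sets. It was 10 to 16 without an array and 19 on the 4 arrays, where fewer arrays separate more genes by construction. Leaving out arrays cannot undo a separation. Of all genes, 3.66% were higher and 3.61% lower without overlap with equal array medians. These shares were 4.5% and 3.42% without dim probe sets and 4.91% and 2.67% with averaged probe sets. They were 7.77% to 14.7% and 4.51% to 10.8% without an array, and 22.5% and 9.59% on the 4 arrays. Of the 7 genes, 4 kept theirs after quantile normalization (Efna4, Ephb1, Nrp1, Plxnd1) and 2 with equal array medians (Efna4, Plxnd1). Family medians stayed within the replicate spread, except for the semaphorins without an array (-0.37 to 0.29, the latter without Trim9 KO replicate 1) and, on the 4 arrays, semaphorins (0.48) and ephrins (0.90); the cause was not tested. The median of all 59 genes was 0.43 on the 4 arrays and -0.26 to 0.22 otherwise except with equal array medians (-0.46).

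Of 24 genes followed, 9 kept the sign of their log2 fold change under the alternatives in which they were kept: Efna4, Efnb1, Ephb1, Plxnb2, Plxnd1, Robo1, Robo3, Sema3b and Slit2. Equal array medians turned Epha7 (-0.0033) and Sema6d (-0.17). Averaging probe sets turned Efna5 (0.62), Epha3 (0.10), Epha4 (0.40), Epha7 (-0.59) and Nrp1 (-0.42). The 4 arrays turned Efna3 (1.40), Efna5 (0.18), Epha4 (0.064), Epha5 (0.060), Plxna2 (0.25), Sema4d (0.52), Slit1 (1.19) and Slit3 (-0.18). Without an array the ranges of the genes that turned were -1.04 to 0.72 for Efna3, -0.79 to 0.29 for Efna5, -1.64 to 0.38 for Efnb3, -0.90 to 0.26 for Epha5, -2.28 to 0.13 for Ephb4, -0.15 to 0.81 for Nrp2, -0.64 to 0.22 for Plxna2, -1.53 to 0.24 for Sema4d, -0.29 to 0.61 for Sema6d, -1.52 to 0.51 for Slit1 and -0.41 to 1.00 for Slit3. The cause of these turns was not tested.

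The replicate numbers are shared by both genotypes. Deviations of same-numbered arrays from their group means correlated at -0.23, -0.081 and 0.033. Arrays with unlike numbers gave -0.29 to 0.28, so these values cannot tell whether the numbers mark littermate pairs. With a replicate block, 1 guidance gene had an unadjusted p under 0.05 and none passed adjustment, the fold changes being the same by construction. Of 45037 probe sets, 864 had such an unadjusted p.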

Other observations

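A transcript read from the opposite strand of the Plxna4 gene, named Plxna4os1, is covered by 1 probe set that was not among the guidance genes. It read 8.48, 6.08 and 6.91 on WT and 10.93, 8.09 and 7.28 on Trim9 KO arrays (log2 intensity), with a log2 fold change of 1.61 (SE 1.18, limma adjusted p = 0.999). Trim9 KO replicate 1 was the highest array, and the genotypes overlapped. The dimmer of the Plxna4 probe sets, at 1.85, had the same order of means.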
